A study of Mus musculus with 6 samples.

Results

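Macrophages with transcripts of Cx3cr1, none of Ccr2 and few of 3 tissue-resident marker genes were examined among CD45+ cells of mouse hearts. A cell belonged to this population when it held at least 10 unique molecular identifiers (UMIs, 1 per captured transcript) of C1qa, C1qb and C1qc together, at least 1 UMI of Cx3cr1 and 0 of Ccr2. It also had to hold under 3 UMIs of Lyve1, Folr2 and Timd4 together, under 3 of Tnf and Tnfsf9, under 4 of Ifit2, Ifit3 and Rsad2, under 2 of the cycling genes Mki67, Top2a and Birc5, under 2 of the B cell genes Cd79a and Cd79b, and 0 of the CD3 genes Cd3d, Cd3e and Cd3g. Of 32761 cells kept by limits on gene number (200 or more) and mitochondrial UMIs (10% or less), 1214 (3.71%) met every criterion. They were 7.84% of the 15485 cells that passed the C1q criterion, called C1q macrophages here. The levels of these 21 genes were fixed by the choice of cells, so they are given as description and were left out of every test.

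The hearts came from C57Bl6J mice and had received either sham treatment or a single fraction of 12 Gy from a small-animal irradiator, and cells were taken at 28 days. There were 2 libraries of irradiated mice labelled STING KO, 2 of irradiated wild-type (WT) mice and 2 of sham-treated WT mice. No sham-treated STING KO library was analysed here. The label of the first group names the strain background and Tmem but describes no allele, and no label gives sex, age, cell sorting batch or the number of animals behind a library. Whether a group's libraries were prepared from different animals is not stated, so p-values describe library-to-library spread that may be purely technical. Xist was detected in 34.4% to 56.7% and the Y-linked gene Ddx3y in 12.0% to 18.3% of the Cx3cr1 macrophages of every library.

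CX3CR1 is the receptor for the chemokine fractalkine, and in mouse tissues it marks monocytes that patrol vessels, microglia and many monocyte-derived macrophages. Cardiac macrophages are usually divided into long-lived resident cells with LYVE1, FOLR2 and TIMD4, cells with CCR2 that are renewed from blood monocytes, and cells between these with high MHC class II and neither set of markers. STING, encoded by Tmem173, relays the sensing of DNA in the cytosol to type I interferon, and IRF7 is a transcription factor that interferon induces and that amplifies interferon production. Radiation damages DNA, and p53 target genes are a common readout of that damage.

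The Cx3cr1 macrophages numbered 123 and 120 in the libraries labelled STING KO, 119 and 117 in the irradiated WT libraries, and 390 and 345 in the sham WT libraries. Their summed UMIs were 728758 and 704825 in the libraries labelled STING KO, 630870 and 570760 in irradiated WT and 1587253 and 1585792 in sham WT. Median depth per cell was 5886 and 5623 UMIs in the libraries labelled STING KO, 4937 and 4046 in irradiated WT and 3881 and 4119 in sham WT. Of the 1212 different barcodes of these cells, 2 occurred in more than 1 library. Tmem173, the targeted gene, stood at 57.8 and 43.2 CPM (the gene's UMIs scaled to a common total over the population's UMIs in a library) in the libraries labelled STING KO, 56.1 and 53.9 CPM in irradiated WT and 49.7 and 45.4 CPM in sham WT. Its log2 fold change between the libraries labelled STING KO and irradiated WT was -0.12 ± 0.23 (SE, n = 2 libraries each, edgeR adjusted p = 0.908). The transcript did not separate the genotypes, and a 3' tag outside the altered part of the gene checks nothing. The group is therefore named by its label throughout.

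The Cx3cr1 and Ccr2 criteria set the size of the population. Requiring Cx3cr1 left 9459 of the C1q macrophages, and requiring 0 Ccr2 left 44.8% of those. Among them, Ccr2 was at 0 in 31.5% and 28.2% in the libraries labelled STING KO, 31.8% and 32.7% in irradiated WT and 79.3% and 80.3% in sham WT. The criterion on Lyve1, Folr2 and Timd4 then left 2085 cells. Just inside the limits were 432 members with 1 Cx3cr1 UMI, 157 with 2 UMIs of the resident markers, 167 with 2 of Tnf and Tnfsf9, 8 with 3 of the interferon genes and 7 with 10 of C1q. Just outside, with the other criteria met, were 839 cells with 0 Cx3cr1 UMIs, 208 with 1 Ccr2 UMI, 123 with 3 resident UMIs, 99 with 3 of Tnf and Tnfsf9, 9 with 4 of the interferon genes and 10 with 9 of C1q. Free RNA bears on the first limit, since 15.9% to 24% of cells gated as B cells also held a Cx3cr1 UMI. The median C1q count was 58 to 96 UMIs in the Cx3cr1 macrophages and 0 to 1 in those B cells, yet 20.02% to 26.2% of the B cells held at least 10 C1q UMIs and 12.2% to 18% met both limits. Of cells gated as neutrophils, 15.1% to 31.3% held a Cx3cr1 UMI and 8.24% to 16.7% met both limits. Free RNA and doublets can therefore reach both limits, and their part in the choice of cells was not tested.

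The label was checked against Ms4a7, a membrane protein gene of macrophages that the rule did not use. A Ms4a7 UMI was found in 90.2% and 81.7% of Cx3cr1 macrophages in the libraries labelled STING KO, 79.8% and 79.5% in irradiated WT and 70.8% and 71.0% in sham WT. The share was 14.2% to 19.7% in gated B cells, 75.03% to 90.1% in macrophages with the resident markers and 40.6% to 64.4% in macrophages with Ccr2. Mrc1, the mannose receptor gene that resident cardiac macrophages express, was found in 75.1% to 95.1% of the Cx3cr1 macrophages. The cells thus carried general macrophage markers in each library. The phrase "without resident markers" means under 3 UMIs of the 3 markers of the rule together, of which 157 members held 2. It does not hold for Mrc1.

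Cx3cr1 macrophages made up a smaller share of C1q macrophages in each irradiated library than in each sham library. The share was 4.68% (95% Wilson interval 3.93 to 5.55) and 4.28% (3.59 to 5.10) in the libraries labelled STING KO. It was 6.41% (5.38 to 7.61) and 3.85% (3.22 to 4.60) in irradiated WT, and 16.4% (15.0 to 17.9) and 12.4% (11.2 to 13.7) in sham WT. Irradiated WT averaged 5.13% ± 1.81 and sham WT 14.4% ± 2.80 (SD, n = 2 each), a difference of -9.28 percentage points. It is given without a test, because the rule's own criterion of 0 Ccr2 left 31.8% and 32.7% of Cx3cr1-positive C1q macrophages in irradiated WT, against 79.3% and 80.3% in sham WT. The groups did not overlap, whereas the libraries labelled STING KO (4.48% ± 0.279) lay within the range of irradiated WT (difference -0.65 points). The intervals cover counting error only, and depth differed between libraries, so the rule was also applied to cells thinned to 3000 UMIs. Shallower cells were left out there, 783 to 1866 in a library, and 72.6% to 87.4% of the Cx3cr1 macrophages were deep enough. The shares in these deeper cells were 9.73% and 9.30% in the libraries labelled STING KO, 11.1% and 6.97% in irradiated WT and 17.6% and 14.8% in sham WT, a difference of -7.20 points between irradiated and sham WT. As shares of all kept cells they were 2.10% and 1.95%, 3.41% and 1.85%, and 8.31% and 5.55% in the same order of groups. A share cannot tell fewer of these macrophages, more of the other C1q macrophages and more Ccr2 UMIs per cell apart.

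**Figure D1:**
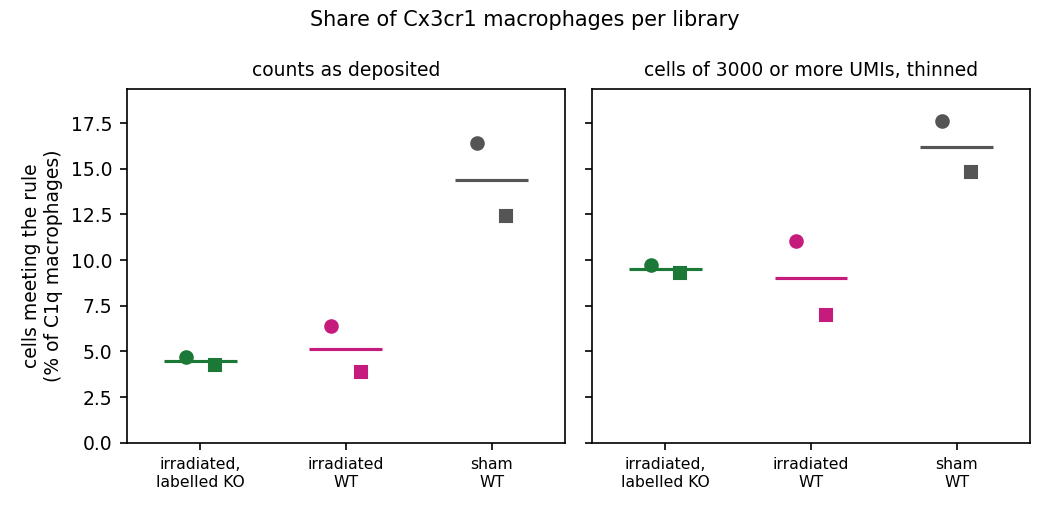
Share of C1q macrophages that met the rule (%, vertical axis) in each library of the 3 groups, as deposited (left) and over the cells of 3000 or more UMIs, thinned to 3000 (right); circles are replicate 1, squares replicate 2 and lines the group means. The sham WT libraries lie at 16.4% and 12.4% on the left, above the 4 irradiated libraries at 3.85% to 6.41%.

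The Cx3cr1 macrophages were set beside 2834 C1q macrophages with at least 3 UMIs of Lyve1, Folr2 and Timd4 and 0 of Ccr2 (resident-marker macrophages), and beside 2043 with Ccr2 and fewer resident UMIs (Ccr2 macrophages). Both met the other limits of the rule but could hold any number of Cx3cr1 UMIs. A Cx3cr1 UMI was found in 36.1% to 55.3% of resident-marker and 58.2% to 81.2% of Ccr2 macrophages. In differences from them, the choice by Cx3cr1 cannot be told apart from that by the other markers. Since the cells were chosen by expression, these levels are descriptions without a test. Compared with resident-marker macrophages, Cx3cr1 macrophages had higher Tmem119, a microglial membrane protein gene, at 29.7 to 82.5 CPM over the 6 libraries against 2.95 to 8.62 CPM. They also had higher Cadm1, a cell adhesion gene, at 72.9 to 108.9 CPM against 11.6 to 25.9 CPM. Olfml3, another gene typical of microglia, stood at 61.7 to 67.2 CPM against 16.0 to 29.1 CPM, and Tgfbr1, a receptor subunit for TGF-beta, at 148.6 to 231 CPM against 51.2 to 65.3 CPM. Rgs1, a regulator of G protein signalling, reached 519.9 to 810.3 CPM against 68.2 to 208 CPM, and Il1b, the gene of interleukin-1 beta, 528 to 1165 CPM against 142 to 398 CPM. Among genes with a mean of at least 50 CPM, the highest ratios were those of Cadm1, Rgs1, Runx3, Col14a1, Il1b, Scimp, Cd72 and Tgfbr1. Tmem119 and Olfml3 lay under that mean and were taken from a list of microglial genes. Over the whole list of 21 microglial genes, 9 had a mean log2 ratio above 0 against resident-marker macrophages, 11 below 0 and 1 at 0. Among the lower ones were P2ry12 (-1.03) and Siglech (-1.72), each in 6 of 6 libraries, while Sall1 and Slc2a5 were at 0 in each library. The list took a median of 1.14% to 1.37% of a cell's UMIs in Cx3cr1 macrophages, 1.09% to 1.29% in resident-marker macrophages and 0.87% to 1.02% in Ccr2 macrophages.

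Some genes of perivascular and resident macrophages were low in the Cx3cr1 macrophages, picked as the lowest ratios to resident-marker macrophages. The whole list of 31 resident macrophage genes took a median of 0.74% to 1.00% of a Cx3cr1 macrophage's UMIs. It took 1.66% to 2.14% in resident-marker macrophages and 0.39% to 0.59% in Ccr2 macrophages. Cd209f, a lectin gene, stood at 0 to 5.40 CPM, against 50.8 to 175 CPM in resident-marker macrophages. Fcna, Ccl8, Retnla, Ednrb, Vsig4, Fgfr1 and Colec12 were also lower in each library. Against Ccr2 macrophages the order turned for several resident genes. Cd163, a scavenger receptor for haemoglobin, stood at 47.3 to 192 CPM in Cx3cr1 macrophages against 10.4 to 72.1 CPM in Ccr2 macrophages, and Stab1, a scavenger receptor, at 531 to 768 CPM against 174 to 279 CPM. Slc40a1, the iron exporter ferroportin, stood at 29.1 to 310.1 CPM against 3.95 to 34.4 CPM. Retnla, a resistin-like gene, was lower, at 10.8 to 363 CPM in Cx3cr1 macrophages against 1951 to 4645 CPM in Ccr2 macrophages. Ear2, Mmp12, Tnip3, Lyz1, S100a4, Olfm1 and Plac8 were also lower, and several of these are genes of monocytes. They were picked as the lowest ratios, and the list of 30 monocyte-derived genes was not lower in each library. In Cx3cr1 against Ccr2 macrophages its median share of UMIs was 1.64% against 1.72% and 1.63% against 1.66% in the libraries labelled STING KO. It was 1.78% against 1.47% and 1.46% against 1.63% in irradiated WT, and 1.45% against 2.05% and 1.54% against 2.01% in sham WT. In resident-marker macrophages it was 2.19% to 2.43%.

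MHC class II genes, which present peptides to CD4 T cells, took a larger share of UMIs in the median Cx3cr1 macrophage than in the median resident-marker macrophage of each library. The 12 genes of the list took a median of 6.06% and 5.38% of a Cx3cr1 macrophage's UMIs in the libraries labelled STING KO, 6.86% and 5.86% in irradiated WT and 7.52% and 7.72% in sham WT. The medians were 0.54% to 2.43% in resident-marker macrophages and 6.50% to 7.93% in Ccr2 macrophages. The 2 populations overlapped, as the highest 10% of resident-marker macrophages lay above 6.11% to 8.52% in the 6 libraries. The spread within the Cx3cr1 macrophages was wide. The lowest 10% of cells lay under 0.48% and 0.33% in the libraries labelled STING KO, 0.99% and 0.47% in irradiated WT and 1.91% and 1.25% in sham WT. H2-Aa, the class II alpha chain gene, stood at 8729 and 7228 CPM in the libraries labelled STING KO, 10519 and 9157 CPM in irradiated WT and 11684 and 11015 CPM in sham WT. Its log2 fold change was -0.21 for irradiated against sham WT (edgeR adjusted p = 0.503) and -0.30 for the libraries labelled STING KO against irradiated WT (adjusted p = 0.417), so neither difference passed. Of 9 class II genes tested, 1 was higher in irradiated WT and 3 in the libraries labelled STING KO, and 0 passed in either comparison.

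**Figure D2:**
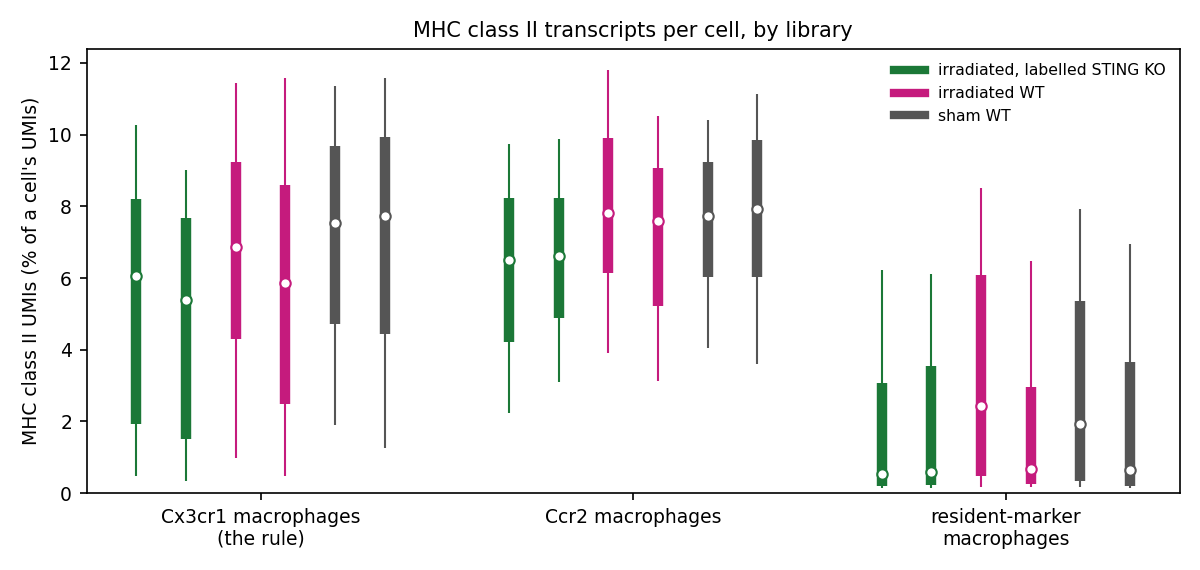
MHC class II UMIs as a percentage of each cell's UMIs (vertical axis) in Cx3cr1, Ccr2 and resident-marker macrophages, for each library in the colours of the 3 groups; circles are medians, thick bars the middle 50% of cells and thin lines the 10th to 90th percentiles. Medians of Cx3cr1 macrophages, 5.38% to 7.72%, lie near those of Ccr2 macrophages and above those of resident-marker macrophages, 0.54% to 2.43%.

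Irradiated and sham WT hearts were then compared within the Cx3cr1 macrophages, to ask what differed in these cells 28 days after radiation. Of 7346 genes tested on summed UMIs, 11 (0.15%) had an adjusted p under 0.05, 9 higher (0.123%) and 2 lower (0.0272%), while 850 had an unadjusted p under 0.05. The median log2 fold change over all genes was -0.0069. Among those that rose were the interferon-induced genes Irf7 and Bst2, the chemokine gene Ccl7 and Cfp, which encodes the complement regulator properdin. The calls depended on single libraries. Without irradiated WT replicate 2 the count was 0, without irradiated WT replicate 1 it was 5, and without sham WT replicate 1 it was 41. The genotype comparison further on uses the same 2 irradiated WT libraries, so the comparisons are not independent.

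The interferon-stimulated genes shown first are Irf7 and Bst2, the called members of that list, whose promoters (250 bases before to 50 after the start, RefSeq, GRCm38.p6, minus strand, printed 5' to 3') differ in a motif. Capitals mark matches to GAAA, 2 bases of any kind and GAAA, the core that interferon-activated factors are known to bind. Both strands were searched. Overlapping matches are merged, and Bst2 holds 2.
Irf7 promoter, chr7:141266375-141266674: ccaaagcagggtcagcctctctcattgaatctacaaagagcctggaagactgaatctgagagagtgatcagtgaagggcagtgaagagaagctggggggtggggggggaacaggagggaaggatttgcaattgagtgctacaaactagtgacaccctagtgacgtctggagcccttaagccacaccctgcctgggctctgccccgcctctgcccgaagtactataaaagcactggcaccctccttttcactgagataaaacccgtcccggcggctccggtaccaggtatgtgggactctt
Bst2 promoter, chr8:71537423-71537722: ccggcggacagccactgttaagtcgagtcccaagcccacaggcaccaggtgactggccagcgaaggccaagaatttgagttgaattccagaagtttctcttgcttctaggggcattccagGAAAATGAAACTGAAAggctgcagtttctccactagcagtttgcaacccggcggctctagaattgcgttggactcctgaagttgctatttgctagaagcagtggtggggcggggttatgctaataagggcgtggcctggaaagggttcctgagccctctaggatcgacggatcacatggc
The motif was found in 1131 of 32851 promoters (3.44%). Counted by gene, it was in the promoters of 1079 of 27025 genes (3.99%) and of 23 of 46 genes of the interferon-stimulated list (50%). A match describes these letters and is not a bound site, and the absence of one in the Irf7 window says nothing about the factors.

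Irf7 (ENSMUSG00000025498, chromosome 7, 141262706 to 141266481, minus strand) had the smallest adjusted p of the interferon-stimulated genes. Its level was 43.0 and 62.1 CPM in the libraries labelled STING KO, 145 and 165 CPM in irradiated WT and 24.5 and 36.6 CPM in sham WT. The irradiated WT libraries were the highest and overlapped neither other group. The log2 fold change of irradiated against sham WT was 2.34 ± 0.24 (SE, n = 2 libraries each, edgeR adjusted p = 0.0101), and it was not called without irradiated WT replicate 1 (2.44, adjusted p = 0.0612) or replicate 2 (2.25, adjusted p = 0.179). An Irf7 UMI was found in 13.8% and 15.0% of cells in the libraries labelled STING KO, 30.3% and 44.4% in irradiated WT and 8.46% and 12.5% in sham WT, against 11.8% to 30.5% of gated B cells. Over the Cx3cr1 macrophages deep enough to be thinned to 3000 UMIs the shares were 6.55% and 7.45% in the libraries labelled STING KO, 22.1% and 32.9% in irradiated WT and 7.12% and 9.09% in sham WT.

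Bst2 (ENSMUSG00000046718, chromosome 8, 71534255 to 71537456, minus strand) encodes tetherin, which holds budding viruses at the cell surface. Its level was 377 and 344 CPM in the libraries labelled STING KO, 629 and 533 CPM in irradiated WT and 272 and 299 CPM in sham WT, again with irradiated WT highest and apart. It rose by 1.02 ± 0.13 on the log2 scale after radiation (adjusted p = 0.0226), but was not called without irradiated WT replicate 1 (0.90, adjusted p = 0.159), irradiated WT replicate 2 (1.14, 0.179), sham WT replicate 1 (0.95, 0.0582) or sham WT replicate 2 (1.096, 0.0727). Of 52 interferon-stimulated genes tested, 2 rose, 0 fell and 50 had a positive fold change, with a median of 0.57 beside -0.0069 over all genes. The rule caps Ifit2, Ifit3 and Rsad2, so cells with the strongest interferon response are not in this population. None of 15 interferon-gamma response genes and 20 MHC class I genes passed, with 11 and 18 positive and medians of 0.33 and 0.46. H2-K1, a class I heavy chain gene, stood at 1390.4 and 1635 CPM in the libraries labelled STING KO, 2966 and 2331 CPM in irradiated WT and 1735 and 1467 CPM in sham WT (log2 fold change 0.73 for irradiated against sham WT, adjusted p = 0.0967).

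Of 18 chemokine genes 1 rose after radiation, Ccl7, a ligand of CCR2 that draws monocytes. Ccl7 stood at 179 and 254 CPM in the libraries labelled STING KO, 427 and 763 CPM in irradiated WT and 196 and 144 CPM in sham WT, without overlap between irradiated and sham WT. Its log2 fold change was 1.80 ± 0.27 (adjusted p = 0.0382), and it was not called without irradiated WT replicate 2 (1.33, adjusted p = 0.305) or sham WT replicate 2 (1.60, adjusted p = 0.105). Of the 18, 13 had a positive fold change, with a median of 0.42.

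Of 13 complement genes 1 rose, Cfp (ENSMUSG00000001128, chromosome X, 20925454 to 20931555, minus strand), which encodes properdin, the protein that stabilizes the alternative pathway convertase. Cfp stood at 157 and 197 CPM in the libraries labelled STING KO, 231 and 286 CPM in irradiated WT and 66.3 and 99.6 CPM in sham WT. The 4 irradiated libraries were all above the sham ones, and the log2 fold change of irradiated against sham WT was 1.64 ± 0.22 (adjusted p = 0.0226). It was not called without irradiated WT replicate 1 (1.79, adjusted p = 0.106) or replicate 2 (1.48, adjusted p = 0.289).

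Other genes that rose were Slc40a1, Gdf3, Prdx1 and the predicted gene Gm21188. Slc40a1 stood at 119.7 and 126 CPM in the libraries labelled STING KO, 107 and 310.1 CPM in irradiated WT and 33.8 and 29.1 CPM in sham WT (2.71 ± 0.40, adjusted p = 0.0382), with 45.5% of its UMIs in 1 cell in irradiated WT replicate 2. Without that library its log2 fold change was 1.77 (adjusted p = 0.179), and without sham WT replicate 2 it was 2.61 (0.0957). Gdf3, a TGF-beta family ligand, stood at 32.3 and 32.4 CPM in the libraries labelled STING KO, 26.4 and 24.1 CPM in irradiated WT and 4.64 and 4.06 CPM in sham WT (2.503 ± 0.38, adjusted p = 0.0382), and was called in none of the fits that left out 1 library (adjusted p from 0.0536 to 0.302). Gdf3 had only 16 and 13 UMIs in irradiated WT, 25% and 38.5% of them in 1 cell, and 7 and 6 in sham WT. Prdx1, a peroxidase that removes hydrogen peroxide, stood at 1059.6 and 1130.3 CPM in the libraries labelled STING KO, 1097 and 1692 CPM in irradiated WT and 611 and 643 CPM in sham WT. A single cell held 26.3% of the Prdx1 UMIs in irradiated WT replicate 2 and 29.3% in replicate 1 of the libraries labelled STING KO. Its log2 fold change was 1.15 ± 0.17 (adjusted p = 0.0382), with adjusted p of 0.179 without irradiated WT replicate 2, 0.0839 and 0.105 without sham WT replicates 1 and 2, and 0.0596 without replicate 1 of the libraries labelled STING KO. For these 3 genes both libraries labelled STING KO were above both sham libraries. Gm21188 stood at 45.7 and 79.7 CPM in the libraries labelled STING KO, 47.8 and 76.1 CPM in irradiated WT and 13.3 and 10.2 CPM in sham WT (2.38 ± 0.36, adjusted p = 0.0382), not called without irradiated WT replicate 1 or 2 or sham WT replicate 2 (adjusted p from 0.105 to 0.415).

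The eleventh gene was Kcnn4, a calcium-activated potassium channel gene, which lies under the level of 20 CPM set for naming and was chosen after its values were seen. Kcnn4 had 13 and 16 UMIs in the libraries labelled STING KO, 23 and 19 in irradiated WT and 4 and 4 in sham WT (log2 fold change 3.71 ± 0.41, adjusted p = 0.0104).

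Tcim and Sparcl1 fell. Tcim, a small regulator gene that was on the list of resident macrophage genes, stood at 14.8 and 21.6 CPM in the libraries labelled STING KO, 8.25 and 7.43 CPM in irradiated WT and 55.7 and 50.1 CPM in sham WT. It fell by 2.73 ± 0.34 on the log2 scale (adjusted p = 0.0226), and lost the call without irradiated WT replicate 1 (-2.81, adjusted p = 0.132) or replicate 2 (-2.66, adjusted p = 0.215). Sparcl1, a matricellular gene of endothelial and stromal cells, had 19 and 23 UMIs in the libraries labelled STING KO, 1 and 2 in irradiated WT and 45 and 52 in sham WT (adjusted p = 0.0226). In the libraries labelled STING KO 89.5% and 78.3% of its UMIs were in 1 cell, and in sham WT 53.3% and 28.9%, so a few cells set its level. Leaving out irradiated WT replicate 1 or 2 or sham WT replicate 2 ended the call (adjusted p = 0.217, 0.179 and 0.0537).

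Of 27 resident macrophage genes 1 rose, Slc40a1, and 1 fell, Tcim, with 9 positive and a median of -0.18. Cd163 stood at 113 and 47.3 CPM in the libraries labelled STING KO, 79.2 and 55.7 CPM in irradiated WT and 192 and 144 CPM in sham WT, without overlap between irradiated and sham WT, and did not pass (-1.31, adjusted p = 0.190). None of 25 monocyte-derived genes (15 positive, median 0.14), 17 microglial genes (7 positive, median -0.11) and 10 general macrophage genes (6 positive, median 0.12) passed. Ms4a7 stood at 797 and 669.8 CPM in the libraries labelled STING KO, 782 and 904 CPM in irradiated WT and 542 and 522 CPM in sham WT (0.66, adjusted p = 0.0967), and Csf1r, the receptor for the main macrophage growth factor, at 1085 and 910.2 CPM, 924 and 895 CPM, and 1379.9 and 1204 CPM in the same order (-0.51, adjusted p = 0.176).

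None of 23 p53 target genes passed, with 15 positive and a median of 0.29. Cdkn1a, which encodes the cell cycle inhibitor p21, stood at 523 and 428 CPM in the libraries labelled STING KO, 711 and 691 CPM in irradiated WT and 405 and 454 CPM in sham WT, without overlap between irradiated and sham WT (0.71, adjusted p = 0.0945). Of 13 replication genes 12 were positive with a median of 0.54, and 0 passed. The lists of NF-kB cytokines (24 tested, median 0.08), efferocytosis (20, -0.04), lipid-associated macrophage genes (22, 0.10), fibrosis factors (18, 0.08), immediate early and dissociation genes (28, -0.09), glycolysis and hypoxia (20, 0.23) and DNA sensing (13, 0.21) had 0 genes past the threshold.

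Transcripts of other cell types were present in some of these macrophages and differed between libraries. The summed level of 14 neutrophil markers was 1674 and 2740 CPM in the libraries labelled STING KO, 129 and 1462 CPM in irradiated WT and 1208 and 11030 CPM in sham WT, with Camp at 0. That of 11 endothelial markers was 109 and 439 CPM, 75.9 and 111 CPM, and 282 and 740 CPM in the same order, and that of 8 fibroblast markers 949 and 165 CPM, 229 and 239.6 CPM, and 205 and 612 CPM. That of 5 erythroid markers was 4.03 and 4.05 CPM, 11.6 and 111 CPM, and 377 and 42.7 CPM. None of 10 neutrophil and 5 endothelial markers tested was positive for irradiated against sham WT (medians -2.19 and -2.48), nor was any of 4 fibroblast (-0.84), 8 cardiomyocyte (-0.47) and 3 erythroid markers (-1.28), and 0 passed. Cells with other-lineage UMIs past a set number were 8.94% and 10.8% of the Cx3cr1 macrophages in the libraries labelled STING KO, 3.36% and 5.98% in irradiated WT and 5.13% and 9.28% in sham WT. Automated doublet scores marked 1.63% to 5.83%.

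The fit was repeated without those 87 cells, an alternative chosen after seeing the data, which left 1127. It called 66 of 6716 genes (0.983%) for irradiated against sham WT, 45 higher (0.67%) and 21 lower (0.313%), including 10 of the 11 above. Unlike the calls above, these were not checked by leaving out 1 library, so their dependence on single libraries is unknown. Of 47 interferon-stimulated genes 9 rose. Besides Irf7 (2.499 ± 0.249, adjusted p = 7.8e-06) and Bst2 (1.04 ± 0.13, adjusted p = 9.88e-05) they were Ifitm3, Ifi47, Ifi35, Lgals3bp, Ifi27l2a, Ly6e and Ms4a4c, by 0.53 to 1.46. Of 20 p53 targets 4 rose, among them Phlda3, an inhibitor of Akt, at 48.9 and 65.9 CPM in the libraries labelled STING KO, 58.2 and 52.5 CPM in irradiated WT and 14.3 and 17.5 CPM in sham WT (1.81 ± 0.30, adjusted p = 0.002). The irradiated libraries of both genotypes were above both sham libraries for Phlda3. The other p53 targets were Gdf15 (2.02), Cdkn1a (0.76) and the apoptosis gene Bax (0.73).

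In the same fit 5 of 18 chemokines rose, namely Ccl7 (1.83), Ccl2 (1.00), Ccl12 (1.18), Ccl8 (2.34) and Cxcl9, and 2 of 20 MHC class I genes, H2-K1 (0.71) and H2-Q7 (1.17). Of 25 resident macrophage genes 4 fell, Cd163 (-1.43 ± 0.25, adjusted p = 0.00382), Tcim (-2.47), Sgce (-1.999) and P3h2 (-2.54), and Slc40a1 rose. Cd163 stood there at 115 and 54.6 CPM in the libraries labelled STING KO, 75.8 and 56.7 CPM in irradiated WT and 198 and 162 CPM in sham WT. The receptor gene Csf1r (-0.58) fell as well. The B cell marker Igkc, an immunoglobulin light chain gene, was also called higher, at 22.9 and 70.7 CPM in the libraries labelled STING KO, 58.2 and 270.8 CPM in irradiated WT and 25.7 and 44.1 CPM in sham WT (2.21 ± 0.449, adjusted p = 0.013), with 1 irradiated WT library high. Cxcl9 rested on 1 library of irradiated WT, at 82.9 CPM against 6.30 CPM in the other.

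The libraries labelled STING KO were next compared with irradiated WT, to ask whether STING bears on the state of these cells after radiation. Of 7346 genes 16 (0.218%) passed, 5 higher (0.0681%) and 11 lower (0.15%), with 737 at an unadjusted p under 0.05 and a median log2 fold change of 0.00105 over all genes. Interferon-stimulated genes and the chemokines Ccl3 and Ccl4 were lower in the libraries labelled STING KO. The count was 1 without either irradiated WT replicate and 8 without replicate 2 of the libraries labelled STING KO. Without a sham STING KO library, a difference present before radiation cannot be told apart from one in the response.

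Of 52 interferon-stimulated genes 3 fell in the libraries labelled STING KO, 0 rose and 4 were positive, with a median of -0.44. Irf7 fell by 1.56 ± 0.24 on the log2 scale (adjusted p = 0.0427), with the levels given above, and was not called in any fit that left out 1 of the 4 libraries compared (adjusted p from 0.084 to 0.339). Ifi27l2a, a small interferon-induced mitochondrial and nuclear protein gene, stood at 1277 and 1238 CPM in the libraries labelled STING KO, 2074 and 1887 CPM in irradiated WT and 1318 and 1395 CPM in sham WT (-0.65 ± 0.10, adjusted p = 0.0469). Lgals3bp, a secreted galectin-binding glycoprotein gene, stood at 132 and 122 CPM in the libraries labelled STING KO, 252 and 232 CPM in irradiated WT and 137 and 148 CPM in sham WT (-0.94 ± 0.15, adjusted p = 0.0492). For both genes the libraries labelled STING KO lay under both sham libraries, and both lost the call whichever single library was left out (adjusted p from 0.0662 to 0.277 for Ifi27l2a and from 0.0682 to 0.302 for Lgals3bp). The Lgals3bp promoter window holds no match to the motif printed for Bst2.

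Of 18 chemokine genes 2 fell in the libraries labelled STING KO. Ccl4 (ENSMUSG00000018930, chromosome 11, 83662584 to 83664683, plus strand), an inflammatory chemokine gene, stood at 565 and 782 CPM in the libraries labelled STING KO, 1769 and 1929.5 CPM in irradiated WT and 1034 and 1202 CPM in sham WT (-1.46 ± 0.16, adjusted p = 0.00439). Ccl3, a related chemokine gene encoded beside it, stood at 528 and 466 CPM in the libraries labelled STING KO, 1091 and 1103 CPM in irradiated WT and 757 and 858 CPM in sham WT (-1.14 ± 0.12, adjusted p = 0.00439). In both genes the 3 groups did not overlap, with the libraries labelled STING KO lowest. Without irradiated WT replicate 1 or 2 the adjusted p was 0.103 and 0.122 for Ccl4, and 0.103 and 0.112 for Ccl3.

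**Figure D3:**
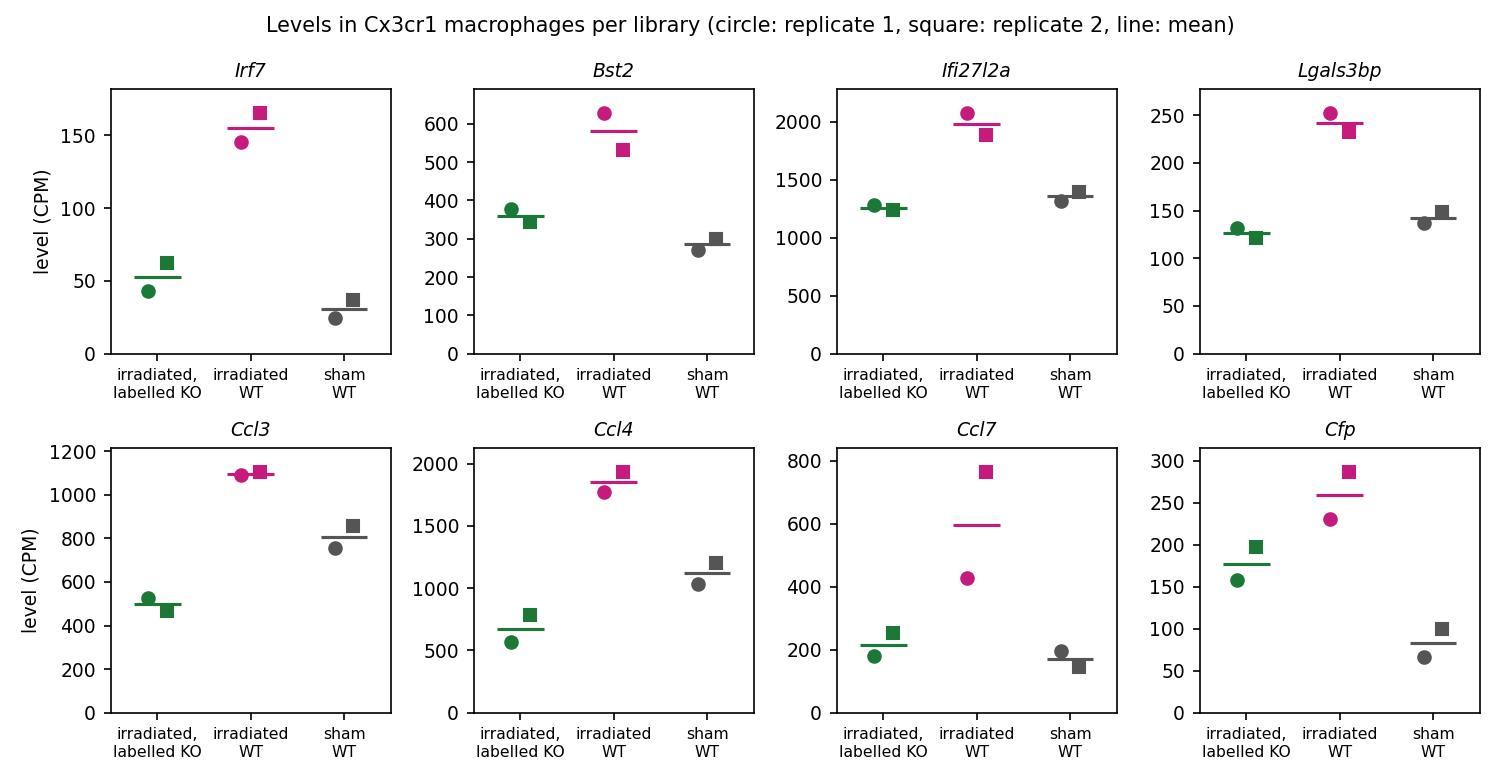
Levels (CPM, vertical axes from 0) of 4 interferon-stimulated genes, 3 chemokines and Cfp in Cx3cr1 macrophages of each library by group; circles are replicate 1, squares replicate 2 and lines the means. Irradiated WT is highest in each panel (Irf7 at 145 and 165 CPM), and for Cfp the libraries labelled STING KO, at 157 and 197 CPM, lie above sham WT, at 66.3 and 99.6 CPM.

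Other genes that fell in the libraries labelled STING KO included Cited2, Glipr1 and the predicted gene Gm10076. Cited2, a transcriptional co-regulator gene, stood at 191 and 209 CPM in the libraries labelled STING KO, 477 and 475 CPM in irradiated WT and 375 and 355 CPM in sham WT (-1.25 ± 0.13, adjusted p = 0.00439), with adjusted p of 0.103 and 0.112 without irradiated WT replicates 1 and 2. Glipr1 stood at 130.4 and 138 CPM in the libraries labelled STING KO, 261 and 245 CPM in irradiated WT and 154 and 165 CPM in sham WT (-0.92 ± 0.15, adjusted p = 0.049), and was called in no fit that left out 1 library (adjusted p from 0.0682 to 0.263). The RIKEN transcript G530011O06Rik stood at 37.7 and 28.4 CPM in the libraries labelled STING KO, 139 and 156 CPM in irradiated WT and 108 and 72.5 CPM in sham WT (-2.15 ± 0.26, adjusted p = 0.0079), and lost the call without irradiated WT replicate 1 (0.111) or 2 (0.171) or without replicate 2 of the libraries labelled STING KO (0.0922).

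Gm10076 stood at 237 and 236 CPM in the libraries labelled STING KO, 1256 and 1103 CPM in irradiated WT and 909 and 1161 CPM in sham WT (-2.32 ± 0.15, adjusted p = 0.000125). It was the 1 named gene of this comparison that was called in each of the 6 fits that left out a library, with log2 fold changes of -2.41 to -2.22. The irradiated WT and sham WT libraries lay together and the libraries labelled STING KO apart. The same held in the other macrophages. In resident-marker macrophages Gm10076 stood at 207 and 213 CPM in the libraries labelled STING KO and 895.5 to 1062 CPM in the WT libraries. In Ccr2 macrophages it stood at 303 and 306 CPM against 1333 to 1641 CPM. The difference was not particular to the Cx3cr1 macrophages, and genotype cannot be told apart from a difference between sets of libraries. Many predicted genes have near-identical copies among which counting can split or lose reads, so the level of Gm10076 is uncertain.

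AY036118 and Gm42418 were higher in the libraries labelled STING KO. AY036118 stood at 105 and 101 CPM there, 26.4 and 24.1 CPM in irradiated WT and 19.2 and 26.4 CPM in sham WT (2.02 ± 0.25, adjusted p = 0.0079). Gm42418 stood at 1526 and 2425 CPM in the libraries labelled STING KO, 766 and 704 CPM in irradiated WT and 883 and 799 CPM in sham WT (1.43 ± 0.19, adjusted p = 0.0143). Both lost the call without irradiated WT replicate 1 (adjusted p = 0.135 and 0.193) or replicate 2 (0.171 and 0.274). These genes overlap on opposite strands of chromosome 17, AY036118 at 39847113 to 39848035 and Gm42418 at 39846958 to 39848788, so their reads are uncertain. Resident-marker and Ccr2 macrophages differed in the same way. In these populations AY036118 stood at 76.5 to 132 CPM in the libraries labelled STING KO and 19.0 to 35.85 CPM in the WT libraries. Gm42418 stood there at 1588 to 2415 CPM against 705 to 952 CPM.

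Sparc and Sparcl1 were also called higher, on very few UMIs in irradiated WT. Sparc, a matricellular gene of microglia, fibroblasts and endothelial cells, had 37 and 85 UMIs in the libraries labelled STING KO, with 56.8% and 90.6% of them in 1 cell, against 4 and 4 UMIs in irradiated WT (3.53 ± 0.58, adjusted p = 0.0492). It was not called without irradiated WT replicate 1 (adjusted p = 0.332) or 2 (0.411), or without replicate 2 of the libraries labelled STING KO (0.138). Sparcl1 had the UMIs given above (adjusted p = 0.0427), and lost the call in each fit without 1 of the 4 libraries compared (adjusted p from 0.0631 to 0.262) and without sham WT replicate 1 (0.0551). Aldh1a3, a retinaldehyde dehydrogenase gene chosen after its values were seen, had 27 and 21 UMIs in the libraries labelled STING KO and 0 in the irradiated and sham WT libraries (adjusted p = 0.0492). All 5 endothelial and 4 fibroblast markers tested were positive in this comparison (medians 1.64 and 2.24), as were 9 of 10 neutrophil markers (median 1.00), while 0 of 3 erythroid markers were (-4.22), with the summed levels given above. Their part in the calls was not tested beyond the removal of cells described next.

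Among the other lists, 1 of 18 fibrosis factors and 1 of 17 microglial genes rose in the libraries labelled STING KO, Sparc in both. MHC class I had 4 of 20 genes positive and a median of -0.33, with H2-K1 at -0.81 (adjusted p = 0.0674). Of 28 immediate early and dissociation genes 2 were positive, with a median of -0.48, and of 24 NF-kB cytokine genes 4 were positive, with a median of -0.52, with 0 called in either list. Replication genes had 1 of 13 positive (median -0.60), p53 targets 12 of 23 (0.06), resident macrophage genes 19 of 27 (0.13), efferocytosis genes 15 of 20 (0.18), complement genes 7 of 13 (0.02) and interferon-gamma response genes 7 of 15 (-0.17), and 0 passed in any of them.

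Without the 87 cells with other-lineage UMIs the genotype comparison called 62 of 6716 genes (0.923%), 15 higher (0.223%) and 47 lower (0.7%), including 14 of the 16 above. The calls of this fit were likewise not checked by leaving out 1 library. There 6 of 47 interferon-stimulated genes fell, namely Irf7 (-1.56), Bst2 (-0.71), Ifitm3 (-0.66), Slfn2 (-0.90), Lgals3bp (-1.004) and Ifi27l2a (-0.66). Of 18 chemokines 6 fell, Ccl2 (-1.40), Ccl7 (-1.80), Ccl3, Ccl4, Cxcl2 and Cxcl16, and of 20 MHC class I genes 3, H2-K1 (-0.82), H2-D1 (-0.62) and H2-Q7 (-1.06). Ccl2, the main ligand of CCR2, stood at 370.1 and 476 CPM in the libraries labelled STING KO, 749.5 and 1488 CPM in irradiated WT and 520.2 and 591 CPM in sham WT (adjusted p = 0.000756). Of 28 immediate early and dissociation genes 7 fell, Klf2, Dnajb1, Junb, Hspa8, Egr2, Hsp90aa1 and Ier3. Thbs1, S100a4, Lyz1 and F13a1 of the list of monocyte-derived genes rose, and F13a1 is also on the list of resident macrophage genes. Lyz1 rested on 1 library labelled STING KO, at 350.3 CPM against 47.4 CPM in the other. Sparc and Sparcl1 were not tested there, having too few UMIs.

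The radiation effect in Cx3cr1 macrophages was tested against that in the other macrophages of the same libraries, fitted with library as a block. Against resident-marker macrophages 2 of 9853 genes differed (0.0203%), Cfp and Socs3, both with a higher value in Cx3cr1 macrophages and 0 (0%) with a lower one, and 594 had an unadjusted p under 0.05. Cfp stood at 231 and 286 CPM in irradiated and 66.3 and 99.6 CPM in sham Cx3cr1 macrophages, and at 588 and 775 CPM in irradiated and 707 and 594 CPM in sham resident-marker macrophages. The radiation effect on Cfp was 1.64 in Cx3cr1, 0.07 in resident-marker and 0.13 in Ccr2 macrophages, with differences of 1.59 ± 0.21 (adjusted p = 0.0348) and 1.55 ± 0.22 (adjusted p = 0.0045). The first was not called without irradiated WT replicate 1 (0.134) or 2 (0.0886) or sham WT replicate 1 (0.0777), and the second not without irradiated WT replicate 1 (0.0808) or 2 (0.058).

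Socs3, a feedback inhibitor of cytokine signalling, stood at 183 and 251 CPM in irradiated and 242 and 328 CPM in sham Cx3cr1 macrophages, whose ranges overlap. In resident-marker macrophages it stood at 129 and 169 CPM in irradiated and 340 and 466 CPM in sham WT, which do not overlap. The difference of effects was 1.05 ± 0.15 (adjusted p = 0.0455), and without any 1 of the 4 libraries it was not called (adjusted p from 0.102 to 0.283). Ccl7 was near the threshold, with a difference of 1.09 (adjusted p = 0.0522).

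Against Ccr2 macrophages 14 of 9386 genes differed in their radiation effect (0.149%), 8 with a higher value in Cx3cr1 macrophages (0.0852%) and 6 with a lower one (0.0639%), and 665 had an unadjusted p under 0.05. Lgals3, which encodes galectin-3, stood at 700 and 513 CPM in irradiated and 236 and 393 CPM in sham Cx3cr1 macrophages, and at 1299 and 987 CPM in irradiated and 1076 and 1479 CPM in sham Ccr2 macrophages. Its difference was 1.14 ± 0.14 (adjusted p = 0.00162), and it was the 1 named gene here called in each fit that left out a library. Gdf15, a stress cytokine gene and p53 target, stood at 168 and 316 CPM in irradiated and 102 and 27.8 CPM in sham Cx3cr1 macrophages, against 60.9 and 84.8 CPM in irradiated and 167 and 84.3 CPM in sham Ccr2 macrophages (difference 2.74 ± 0.37, adjusted p = 0.0023). In resident-marker macrophages Gdf15 was also higher after radiation, at 245 and 146 CPM in irradiated and 50.5 and 71.3 CPM in sham WT. In the irradiated WT libraries 30.4% and 34.1% of the Gdf15 UMIs of Cx3cr1 macrophages were in 1 cell. Ninj1, which encodes a protein of plasma membrane rupture, stood at 195 and 284 CPM in irradiated and 115 and 106 CPM in sham Cx3cr1 macrophages, against 79.9 and 91.4 CPM in irradiated and 114 and 104 CPM in sham Ccr2 macrophages (1.47 ± 0.20, adjusted p = 0.0023). Without irradiated WT replicate 2 the adjusted p was 0.122 for Gdf15 and 0.0891 for Ninj1.

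Ccl4 (0.69 ± 0.12, adjusted p = 0.0406) and Junb (0.56 ± 0.10, adjusted p = 0.0406) were also higher in their effect in Cx3cr1 macrophages. Ccl4 was not called without irradiated WT replicate 2 (adjusted p = 0.37) or sham WT replicate 1 (0.18) or 2 (0.286), and Junb not without any 1 of the 4 libraries (0.0934 to 0.342). With a lower value in Cx3cr1 macrophages stood Iigp1, an interferon-gamma induced GTPase gene, at 29.7 and 31.6 CPM in irradiated and 22.5 and 31.8 CPM in sham Cx3cr1 macrophages, against 41.1 and 20.9 CPM in irradiated and 2.96 and 1.05 CPM in sham Ccr2 macrophages (-3.68 ± 0.63, adjusted p = 0.0303). It was not called without irradiated WT replicate 1 (-3.06, adjusted p = 0.234) or sham WT replicate 2 (-2.90, adjusted p = 0.36).

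Ly6a, an interferon-inducible surface protein gene that endothelial cells also express, stood at 89.1 and 26.0 CPM in irradiated and 15.3 and 88.1 CPM in sham Cx3cr1 macrophages, against 189 and 73.3 CPM in irradiated and 5.93 and 12.6 CPM in sham Ccr2 macrophages (-3.61 ± 0.46, adjusted p = 0.00162). Without sham WT replicate 2 its difference was -2.54 (adjusted p = 0.442), and without cells holding other-lineage UMIs -1.67 (adjusted p = 0.655). Dcn, a fibroblast gene, differed by -6.51 ± 0.78 (adjusted p = 0.00162), but by -0.85 (adjusted p = 0.904) without those cells, and 94.5% of its UMIs in sham WT replicate 2 were in 1 cell. It was also not called without irradiated WT replicate 1 (-3.84, adjusted p = 0.293) or sham WT replicate 2 (-3.75, adjusted p = 0.406). The other genes called, named after their values were seen, were Kcnn4 and Apoc2, with a higher value in Cx3cr1 macrophages, and Aqp1, Fbln2 and Ptprb, with a lower one.

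**Figure D4:**
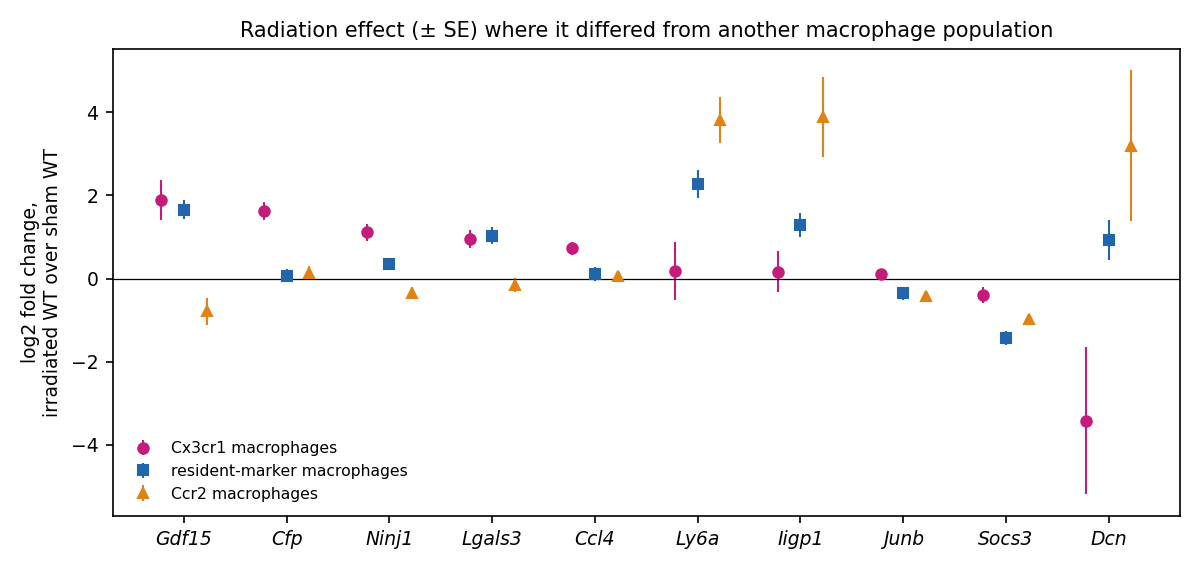
Radiation effect (log2 fold change of irradiated over sham WT, vertical axis) with SE for each named gene whose effect differed between Cx3cr1 macrophages (circles) and resident-marker (squares) or Ccr2 macrophages (triangles). For Cfp the circle stands at 1.64 and the other symbols at 0.07 and 0.13, while for Lgals3 the circle lies beside the square and above the triangle at -0.16.

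Irf7 and Bst2 were higher after radiation in each of these macrophage populations. The log2 fold change of irradiated against sham WT was 2.34 for Irf7 in Cx3cr1, 1.92 in resident-marker and 2.46 in Ccr2 macrophages, each called in its own fit (adjusted p = 0.0101, 0.00242 and 0.0332). The difference between Cx3cr1 and resident-marker macrophages was 0.43 (adjusted p = 0.845), and between Cx3cr1 and Ccr2 macrophages -0.09 (adjusted p = 0.988). For Bst2 the effects were 1.02, 1.26 and 1.09, and the differences -0.22 (adjusted p = 0.885) and -0.03 (adjusted p = 0.995). These p-values do not show that the populations responded alike.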

How the data were processed

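CD45+ cardiac cells were run on the 10x Genomics 3' platform, per the labels' protocols. The authors deposited raw UMI counts for each barcode, made with Cell Ranger 5.0.0 on mm10 per the file headers and the submitters' processing notes, which also name Seurat 3. Library totals were 31650962 to 59675213 UMIs. GENCODE vM21 placed 32158 of 32285 genes (99.61%) on GRCm38. Whether counting used strand is not stated.

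The cells, gene lists and tests were chosen with earlier results of these data known. UMIs of the chosen cells were summed per library and fitted over all 6 libraries with edgeR 4.0.16 (R 4.3.3), with its low-count filter, TMM scaling and quasi-likelihood test on 3 residual degrees of freedom, and Benjamini-Hochberg adjustment over all genes but the 21 of the rule. An adjusted p under 0.05 was a call. The SE is the absolute fold change over the root of F. Differences between populations had library as a block. Named genes had a mean of at least 20 CPM and were the 12 largest called changes each way (6 for differences of effect, by adjusted p), plus up to 4 called genes of each list or its first gene. Genes set beside other macrophages had at least 50 CPM and the same sign in 6 libraries, 8 each way, or came from the microglial or MHC class II list. B cells were gated by 5 UMIs of Cd79a and Cd79b with 0 of CD3. Cells with other-lineage UMIs held at least 10 of S100a8 and S100a9 or of haemoglobin genes, or 3 of endothelial, fibroblast, mural or T and NK genes. The highest scrublet scores (scanpy 1.11.5) were called doublets at 0.8% for every 1000 cells. Code was tested on simulated counts. DESeq2 1.42.0 was an alternative. Some called genes are not reported here.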

Additional observations from a re-analysis of the deposited data

Results flagged for a closer look

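These are the genes whose radiation effect, as a log2 fold change of irradiated over sham WT, differed between the Cx3cr1 macrophages and another macrophage population of the same libraries by edgeR's interaction test. Against resident-marker macrophages they were Cfp (1.59) and Socs3 (1.05). Against Ccr2 macrophages the effect was higher in Cx3cr1 macrophages for Lgals3 (1.14), Ninj1 (1.47), Gdf15 (2.74), Cfp (1.55), Ccl4 (0.69) and Junb (0.56), and lower for Dcn (-6.51), Ly6a (-3.61) and Iigp1 (-3.68). Removal of cells with other-lineage UMIs took Dcn to -0.85 (adjusted p = 0.904), Ly6a to -1.67 (0.655) and Ccl4 to 0.46 (0.203). With at most 5% mitochondrial UMIs Lgals3 was still called (2.55, adjusted p = 0.00679), and Cfp was not against resident-marker (1.63, 0.629) or Ccr2 macrophages (1.30, 0.517).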

How the results depend on the processing

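Counts of calls moved with nearly every setting. They are given for radiation, genotype, and the difference of radiation effects from resident-marker and from Ccr2 macrophages (11, 16, 2 and 14 as reported). At most 5% mitochondrial UMIs gave 0, 1, 0 and 3, where edgeR had 267 genes at an unadjusted p under 0.05 for radiation. No filter on low counts gave 0, 1, 88 and 103, a minimum count of 30 gave 1, 9, 5 and 8, and the 4 libraries compared alone gave 31, 10, 7 and 39. Without cells holding other-lineage UMIs they were 66, 62, 9 and 28. Thinning to 3000 UMIs gave 34, 48 and 9 for radiation, genotype and Ccr2 macrophages, and DESeq2 gave 37, 37 and 8. Requiring 2 Cx3cr1 UMIs gave 32, 8 and 34 for radiation, resident-marker and Ccr2 macrophages, and a share difference between irradiated and sham WT of -5.14 points. Removal of scored doublets gave 1 and 35 for the population differences, RLE scaling gave 4 for resident-marker macrophages, and lifting the interferon criterion gave 9 for genotype. Leaving out 1 library gave 0 to 41, 1 to 15, 1 to 11 and 10 to 59, and share differences of -11.3 to -7.29 points for radiation and -1.93 to 0.63 points for genotype.

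Replicate numbers were not used as pairs. Same-numbered libraries correlated at 0.082, 0.0967 and 0.146 in their deviations from group means, which with 2 libraries a group cannot decide whether they were paired. The fit with a replicate block gave 83, 52, 15 and 45 calls, against 11, 16, 2 and 14 without it. Whether same-numbered libraries shared a batch was not tested.

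Over the named genes, 915 values kept direction and side of the threshold, 223 lost the call, 21 gained it and 23 reversed. Among the reversed, Sparcl1 was the called gene (-0.19 for genotype after thinning). Left out one library at a time, log2 fold changes for radiation ranged from -1.36 to 1.99 for Ly6c2 and from -0.16 to 1.01 for Il1a, and for genotype from -0.11 to 0.72 for Gbp2, from -0.53 to 0.73 for Cd163, from -0.030 to 0.31 for Mertk (-0.022 without replicate 1 of the libraries labelled STING KO), from -0.36 to 0.065 for Tmem173 and from -0.0097 to 0.25 for Csf1r. Ly6c2 and Il1a turned without irradiated WT replicate 1, where Il1a stood at -0.064. Other settings turned Mertk (0.087), Hk1 (-0.014) and Mcm3 (-2.5e-06) for radiation after thinning, and Trem2 (-0.013 at 5% mitochondrial UMIs, -0.014 without the interferon criterion, -0.064 without other-lineage cells). For genotype they turned Gbp2 (-0.22 without the interferon criterion), H2-Aa (0.20) and Ms4a7 (0.063) at 5% mitochondrial UMIs, and Il1a (-0.46), Mertk (-0.22), Hk1 (0.41) and Mcm3 (0.50) after thinning. The cause of these changes was not tested. Genes of few UMIs cannot be resolved at 570760 to 728758 UMIs for each irradiated library.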
